A study of Sus scrofa with 95 samples.

Results

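The genes described here are those that give blood vessel lining cells (endothelial cells) their identity or rise when these cells are activated. They were chosen by symbol from a list of 34 genes, not by a cut on a measured value, though with earlier results of these data known. Of the 34, 33 were found among the 35670 genes of the count table. The selectin SELE was not analysed here, and ICAM2 was named from its gene ID. All 33 genes passed the filter on low counts in each of 5 organs, so the counts below are over all 33. Receptors of the VEGF and angiopoietin families are not among them.

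Endothelial cells form the inner wall of every vessel and are held together by junction proteins such as PECAM1 and the cadherin CDH5. Transcription factors of the ETS and SOXF families (ERG, SOX7, SOX17 and SOX18) maintain their identity, and flowing blood induces KLF2 and the nitric oxide synthase NOS3. Inflammatory signals make the same cells present adhesion molecules (ICAM1, VCAM1 and P-selectin, SELP) that catch passing leukocytes. Endothelium differs between organs, from the tight capillaries of heart muscle to the fenestrated ones of kidney and ileum and the sinusoids of liver. Several of the genes are also made by other cells, for example PROX1 by hepatocytes and heart muscle cells, EDNRB, VCAM1 and CD34 by other stromal cells and ICAM1 by epithelium and leukocytes.

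The study placed infant pigs on cardiopulmonary bypass (CPB, a pump and oxygenator that take over from heart and lungs) with deep hypothermic circulatory arrest, in which the cooled circulation is stopped. Poly(A) RNA was sequenced from left ventricle, terminal ileum, kidney cortex, liver and right lower lung lobe of 19 animals, 1 library per organ and animal and 95 in all. The labels give a weight of 5 to 10 kg for all animals, and no age. Each arm held animals of both sexes. There were 8 control animals with anesthesia alone and no drug, 7 animals with CPB and 75 min of arrest and no drug (CPB below), and 4 animals with CPB, 75 min of arrest and 75 mg of linrodostat, an inhibitor of the tryptophan-degrading enzyme IDO1. The CPB arms both carry the arrest, so bypass, cooling and arrest cannot be told apart.

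A library held between 19956858 and 53627711 counts. Levels are in CPM, counts relative to the library total, scaled within an organ by TMM (edgeR's trimmed mean of ratios), a log2 fold change (log2FC) is given ± its standard error (SE), and a gene passed where edgeR's quasi-likelihood F test gave a Benjamini-Hochberg adjusted p under 0.05 over all genes tested in that organ. Every adjusted p below is from that test unless another tool is named. Libraries are of whole tissue, so fewer cells of a type and less RNA per cell cannot be told apart. The labels give a batch 2 to the hearts and a batch 1 to the remaining organs, so a difference of heart from another organ cannot be told apart from that of the batches. Some libraries stood apart in what else they held. Control kidneys 14 and 15 had SLC12A1, a transporter of the loop of Henle, at 2288 and 2098 CPM against 244 to 860 in the other 17 kidneys, and the medullary urea transporter SLC14A2 at 124 and 10.3 CPM against at most 0.458. Control kidneys 1, 10 and 26 had the fat cell gene ADIPOQ at 63.3, 13.5 and 126 CPM, against at most 0.580 in the others. Lungs of CPB animals 19 and 25 had 72.8 and 52.0 CPM of 6 kidney markers, 0.779 and 0.556% of the level in kidney. Linrodostat lungs 20 and 18 had 39.0 and 14.2 CPM of them, CPB lung 21 had 9.21, and no control lung exceeded 3.16. The kidney and lung results were also computed without control kidneys 14 and 15, control kidneys 1, 10 and 26, or CPB lungs 19 and 25. Linrodostat lungs 18 and 20 were left out only 1 at a time.

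In control animals the lung held the highest level of most of these genes. On a TMM scale shared by the 5 organs, all 33 genes differed between organs, where 94% of all genes did. Lung was highest for 29 of the 33 under each of 3 scalings, and for 24 of these it lay above the second organ at an adjusted p under 0.05. Between 2 organs, 55.1 to 68.1% of all genes differed in either direction. The share of all genes that were highest in lung is not given here, so the 29 and the 24 have no matched background. Plain CPM shifted the median of all genes by −0.84 in liver to 0.54 in lung (log2).

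Among receptors and their partners, CALCRL and RAMP2, which together form an adrenomedullin receptor, stood out in lung. CALCRL averaged 174 ± 45.1 CPM (SD, n = 8 for all organ means) in lung, 29.2 ± 10.8 in heart and 5.75 ± 1.31 in liver. RAMP2 was at 297 ± 28.4 CPM in lung and between 37.2 and 54.3 in the other 4 organs. ACVRL1, the endothelial BMP receptor also called ALK1, was at 337 ± 34.1 CPM in lung against 29.0 to 51.8 elsewhere. Endothelin 1 (EDN1), a vasoconstrictor, was at 46.9 ± 13.4 CPM in lung against 4.58 to 7.81 elsewhere. For these 4 genes the lowest control lung lay above the highest control sample of every other organ. This was not particular to them. It also held for other genes of the list, among them CDH5, EGFL7, KLF2 and ICAM2, and not for others such as ERG and NOS3. The share of all genes with such a gap is not given here.

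For 4 genes lung was not the highest organ. MMRN2, a matrix protein of endothelium, was highest in heart (47.3 ± 20.0 CPM), where it lay above kidney (23 ± 11, adjusted p = 0.000375). ESM1, a secreted proteoglycan of activated and tip cells, was at 16.6 ± 8.86 CPM in kidney and 13.0 ± 9.84 in lung, which did not differ beyond their spread (adjusted p = 0.429), and at only 0.365 ± 0.213 in liver. PROX1, the transcription factor of lymphatic endothelium, was at 49.4 ± 19.7 CPM in liver and 42.4 ± 7.83 in heart, in an order that changed with the scaling, and at 1.20 ± 0.464 in lung. VCAM1 was at 85.5 ± 34.3 CPM in ileum and 52.4 ± 19.4 in heart, which did not differ beyond their spread (adjusted p = 0.0938). The pan-endothelial factor ERG was at 50.02 ± 9.71 CPM in lung and 47.2 ± 14.1 in heart, which did not differ beyond their spread (adjusted p = 0.719), and lower in kidney (22 ± 6.87), liver (15.8 ± 5.48) and ileum (6.62 ± 2.87).

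**Figure D1:**
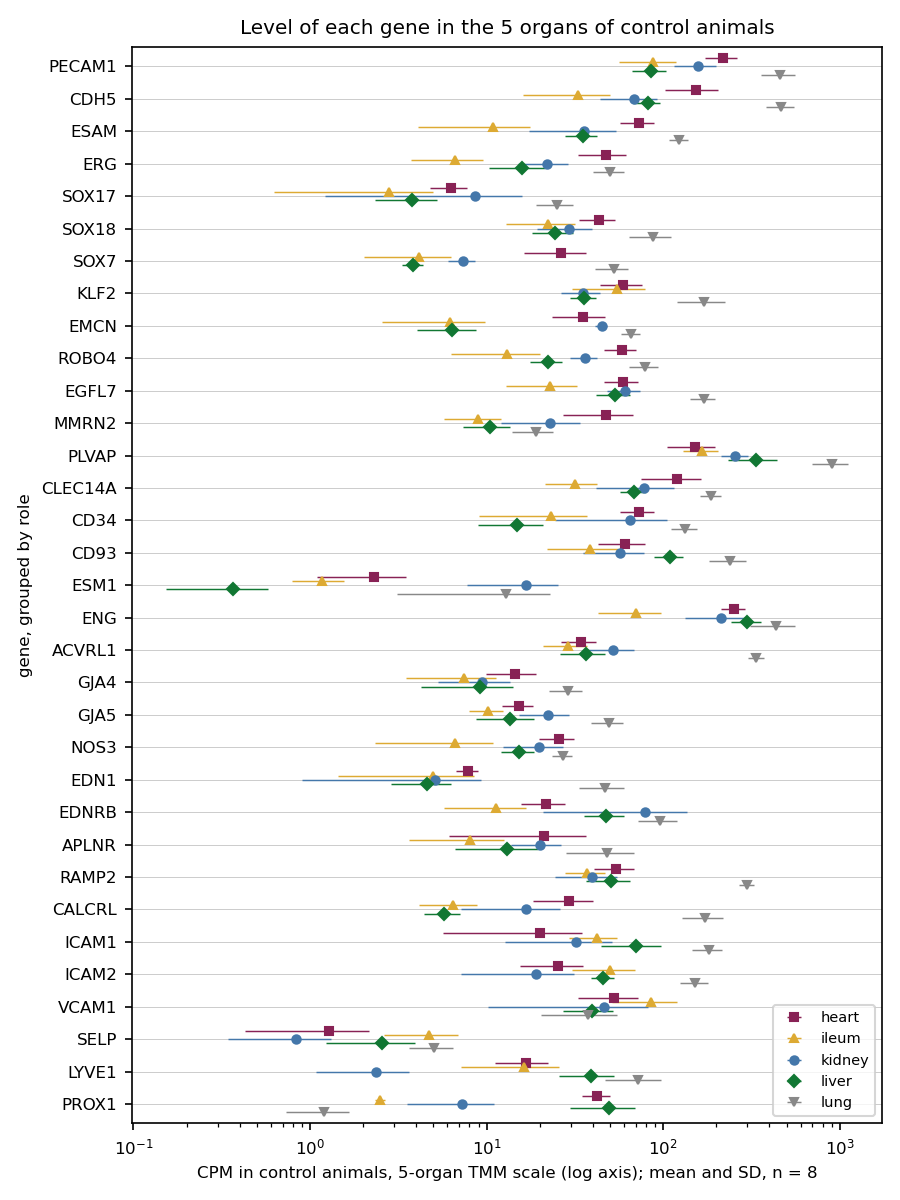
Mean level of each of the 33 genes in the 8 control animals of each organ (points; bars are SD), in CPM on a TMM scale shared by the 5 organs, on a log axis. Lung lies furthest right for most genes, and PROX1, with 1.20 CPM in lung and 49.4 in liver, is the clearest exception.

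The first comparison asks what CPB with arrest did to these genes relative to anesthesia alone. Across organs, 17 of the 33 genes passed in at least 1 organ, in 21 gene and organ pairs, and 16 passed in none. Kidney had 3 genes that rose and 7 that fell, lung 3 and 2, liver 0 and 5, heart 1 and 0, and ileum 0. These shares stand against the share of all tested genes that passed, which was 21.1% in kidney (11.3% higher and 9.86% lower), 4.71% in lung (2.08 and 2.62%), 26.9% in liver (15.6 and 11.3%), 11.9% in heart (6.39 and 5.53%) and 0% in ileum. Counting either direction, the 10 of 33 in kidney and the 5 of 33 in lung are above their background. The 5 of 33 in liver and 1 of 33 in heart are below it. By direction, the 7 that fell in kidney and 5 in liver are above the 9.86 and 11.3% of all genes lower. The 3 that rose in kidney and 0 in liver are below the 11.3 and 15.6% higher. Lung is above its background in each direction and heart below. No test of the list was made. The median log2FC of the 33 was −0.41 in kidney, −0.17 in liver, −0.07 in heart, 0.09 in lung and 0.10 in ileum, where the median over all tested genes lay between −0.03 and 0.01. Endothelial genes moved in different directions within the same organ: in kidney and lung EMCN fell while PECAM1 and ESM1 rose.

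**Figure D2:**
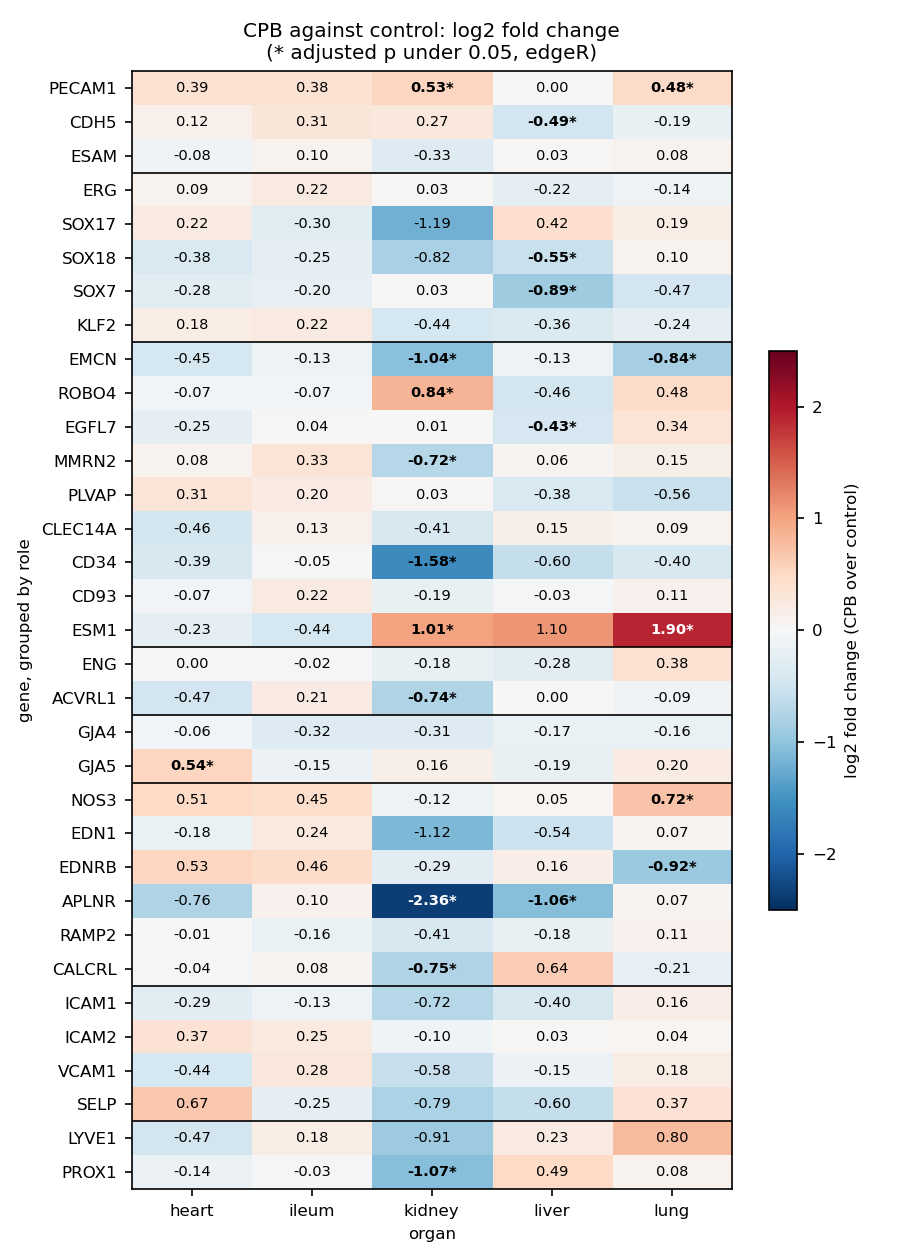
Log2FC of CPB over control for each of the 33 genes (rows, in blocks by role) in 5 organs (columns); red is higher and blue lower in CPB, and bold values with a star passed at an adjusted p under 0.05. Kidney has 10 such cells, from −2.36 for APLNR to 1.01 for ESM1, and ileum none.

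In kidney 7 genes fell, among them EMCN, CD34 and the receptor genes APLNR, ACVRL1 and CALCRL, and 3 rose. Endomucin (EMCN, ENSSSCG00000038080, chromosome 8, 120174091 to 120227971 in Sscrofa11.1), a mucin on the surface of capillary and venous endothelium that hinders leukocyte contact, was at 50.5 to 63.8 CPM in the 8 controls (median 57.8), 21.8 to 41.7 in the 7 CPB animals (median 25.3) and 23.9, 24.5, 25.2 and 25.3 in the 4 linrodostat animals. All CPB kidneys lay below every control kidney. Its log2FC was −1.04 ± 0.12 (adjusted p = 1.3e-05). In control kidneys EMCN varied least of the 33 genes, with an SD of 0.13 on the log2 scale where the median gene had 0.54.

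APLNR, the receptor of the vasodilator peptide apelin, was at 17.2 to 43.3 CPM in controls (median 22.4), 1.99 to 10.0 in CPB (median 4.54) and 2.58, 3.17, 7.67 and 9.24 in linrodostat kidneys. Here too the groups did not overlap. Its log2FC of −2.36 ± 0.35 (adjusted p = 0.000208) was the steepest of the 165 values for these genes and organs. Its ligand APLN, a gene from the list of 7 measured vasoactive ligands and partners (2 rose and 1 fell), went the other way, from 12.0 ± 3.68 to 44.6 ± 27.9 CPM (log2FC 1.89 ± 0.40, adjusted p = 0.00349).

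CD34 (chromosome 9, 134912793 to 134937763), a sialomucin of capillary endothelium and of some stromal cells, was at 41.4 to 192 CPM in controls (median 61.1) and 17.1 to 54.3 in CPB (median 25.4), and 6 of 7 CPB kidneys lay below every control. Its log2FC was −1.58 ± 0.39 (adjusted p = 0.00813), and −1.0 (adjusted p = 0.0339) without control kidneys 14 and 15, which had the highest CD34 levels. The adrenomedullin receptor gene CALCRL fell from a median of 15.7 to 12.7 CPM (log2FC −0.75 ± 0.26, adjusted p = 0.0496), while its ligand ADM rose from 33.6 ± 13.1 to 72.0 ± 17.6 CPM (log2FC 1.10 ± 0.23, adjusted p = 0.00322). The third gene of that list that passed, RAMP3, which pairs with CALCRL and is named here after its values were seen, had a log2FC of −0.79 ± 0.17 (adjusted p = 0.00326).

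ACVRL1, which with the co-receptor ENG senses BMP9 in blood, was at 47.7 to 113 CPM in controls (median 60.2) and 24.8 to 64.5 in CPB (median 36.9), with a log2FC of −0.74 ± 0.23 (adjusted p = 0.0248). Of 12 measured genes of the same pathway 1 rose and 5 fell, among them the target ID3 (log2FC −0.75 ± 0.17, adjusted p = 0.00463) and the signal transducer SMAD9 (−0.85 ± 0.24, adjusted p = 0.0159). The 5 that fell and the 1 that rose compare with 9.86 and 11.3% of all genes tested. ENG itself had a log2FC of −0.18 and did not pass.

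PROX1 was at 4.80 to 19.3 CPM in controls (median 7.37) and 2.67 to 6.80 in CPB (median 4.09), with a log2FC of −1.07 ± 0.32 (adjusted p = 0.0217). MMRN2 had a median of 25.6 CPM in controls and 17.1 in CPB (log2FC −0.72 ± 0.24, adjusted p = 0.0365). The RefSeq span of MMRN2 overlaps that of BMPR1A, as PECAM1, SOX18, ENG and PROX1 also overlap a neighbour, and since it is not stated whether counting used the strand, reads of the pairs may be shared. Just outside the threshold were SOX18 (log2FC −0.82, adjusted p = 0.0512), SOX17 (−1.19, adjusted p = 0.0548) and EDN1 (−1.12, adjusted p = 0.0579).

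The 3 genes that rose in kidney were ROBO4, ESM1 and PECAM1. ROBO4 (chromosome 9, 52083757 to 52097784), a guidance receptor that stabilises the endothelial barrier, was at 34.8 to 60.2 CPM in controls (median 44.3), 55.6 to 122 in CPB (median 78.9) and 53.9, 56.9, 93.8 and 100.2 in linrodostat kidneys. Of the 7 CPB kidneys, 5 lay above every control, and the log2FC was 0.84 ± 0.19 (adjusted p = 0.00391). ESM1 had a median of 22.7 CPM in controls and 44.0 in CPB (log2FC 1.01 ± 0.32, adjusted p = 0.0323), with overlapping groups. PECAM1 (CD31) went from a median of 170 to 315 CPM (log2FC 0.53 ± 0.18, adjusted p = 0.0437), also with overlap.

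**Figure D3:**
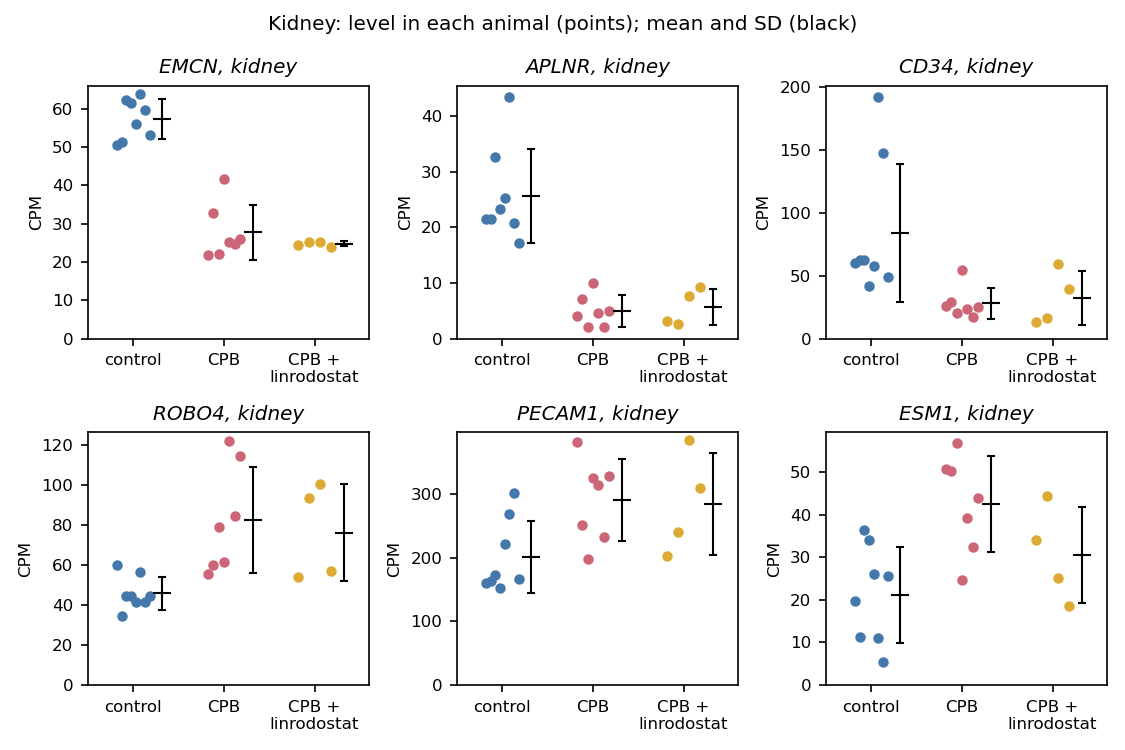
CPM of EMCN, APLNR, CD34, ROBO4, PECAM1 and ESM1 in each kidney (points) of the 8 control, 7 CPB and 4 CPB with linrodostat animals, with mean and SD in black. EMCN and APLNR show no overlap between control and CPB, and control kidneys 14 and 15 are the 2 highest CD34 points at 192 and 147 CPM.

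Transcripts of other cells moved with these genes in kidney, where 9.86% of all genes fell. Of 11 macrophage markers 6 fell, and their summed level was 292 to 2338 CPM in controls, highest in control 15, and 257 to 559 in CPB. Of 10 smooth muscle and pericyte markers 5 fell (874 to 1975 against 426 to 1202 CPM), and of 8 fibroblast markers 3 fell (1850 to 5783 against 908 to 3322 CPM), with no marker at 0 in any group. Their part in the result was not tested. Without control kidneys 14 and 15 the calls of ACVRL1 (adjusted p = 0.0894), PROX1 (0.101), ESM1 (0.0584), MMRN2 (0.185) and CALCRL (0.294) ended. In that fit 7 genes passed, of which 3 rose and 4 fell (3036 genes passed in all). Not all of the 7 had passed with those kidneys included. In the same fit 2 macrophage markers fell and 1 rose, 4 smooth muscle and pericyte and 0 fibroblast markers fell, and of the ACVRL1 pathway list 1 rose and 2 fell. Without the 3 controls with ADIPOQ the call of PECAM1 ended (0.241) and 12 passed, of which 2 rose and 10 fell (2378 genes passed in all). Leaving out 1 library at a time ended the call of PECAM1 and that of CALCRL for 13 of the 19 kidneys each, and those of ESM1 and MMRN2 for 8 each. EMCN, APLNR, CD34 and ROBO4 passed under every alternative tried, and leaving out CPB kidney 19 left 6 genes that passed.

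In lung, EMCN fell again and was joined by the endothelin receptor EDNRB, while ESM1, NOS3 and PECAM1 rose. EDNRB (chromosome 11, 50073300 to 50102879), which in endothelium clears endothelin 1 and triggers nitric oxide release, was at 87.1 to 202 CPM in controls (median 140), 56.0 to 118 in CPB (median 62.1) and 60.5, 92.0, 126 and 128 in linrodostat lungs. In 6 of 7 CPB lungs it was below every control. The log2FC was −0.92 ± 0.19 (adjusted p = 0.0122), and EDN1, the ligand, had a log2FC of 0.07 that did not pass.

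EMCN was at 74.6 to 112 CPM in control lungs (median 97.8), 27 to 76.1 in CPB (median 55.0) and 39.3, 43.6, 47.2 and 59.5 in linrodostat lungs, with 6 of 7 CPB lungs below every control and a log2FC of −0.84 ± 0.18 (adjusted p = 0.0142). ESM1 (chromosome 16, 34184255 to 34193877) was at 5.81 to 44.1 CPM in controls (median 12.8), 25.5 to 119 in CPB (median 68.4) and 47.1, 58.6, 62.1 and 103 in linrodostat lungs. Its spread among the controls was the widest of the 33 genes, 1.03 on the log2 scale, and 5 of 7 CPB lungs still lay above every control (log2FC 1.90 ± 0.42, adjusted p = 0.0173).

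NOS3 was at 30.9 to 44.5 CPM in control lungs (median 40.2), 40.4 to 93.1 in CPB (median 58.6) and 47.0, 80.0, 101 and 136 in linrodostat lungs, and 6 of 7 CPB lungs exceeded every control (log2FC 0.72 ± 0.20, adjusted p = 0.0396). PECAM1 had a median of 649 CPM in controls and 916 in CPB (log2FC 0.48 ± 0.14, adjusted p = 0.0493), with overlapping groups. Of 9 other flow-responsive genes of endothelium 4 rose and 0 fell in lung, led by CYP1B1 (log2FC 1.5 ± 0.37, adjusted p = 0.0297) and the protease ADAMTS1 (1.41 ± 0.40, adjusted p = 0.0478), where 2.08% of all genes rose. Without CPB lungs 19 and 25, 0 of the 9 passed, with CYP1B1 at a log2FC of 1.6 (adjusted p = 0.0756) and ADAMTS1 at 1.61 (adjusted p = 0.0739). The flow-induced factor KLF2 itself had a log2FC of −0.24 and did not pass. APLN, which rose in kidney, fell in lung from 90.3 ± 18.6 to 33.9 ± 20.5 CPM (log2FC −1.42 ± 0.39, adjusted p = 0.0450), a call that ended without CPB lungs 19 and 25 (log2FC −1.35, adjusted p = 0.154), and APLNR had a log2FC of 0.07 there.

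**Figure D4:**
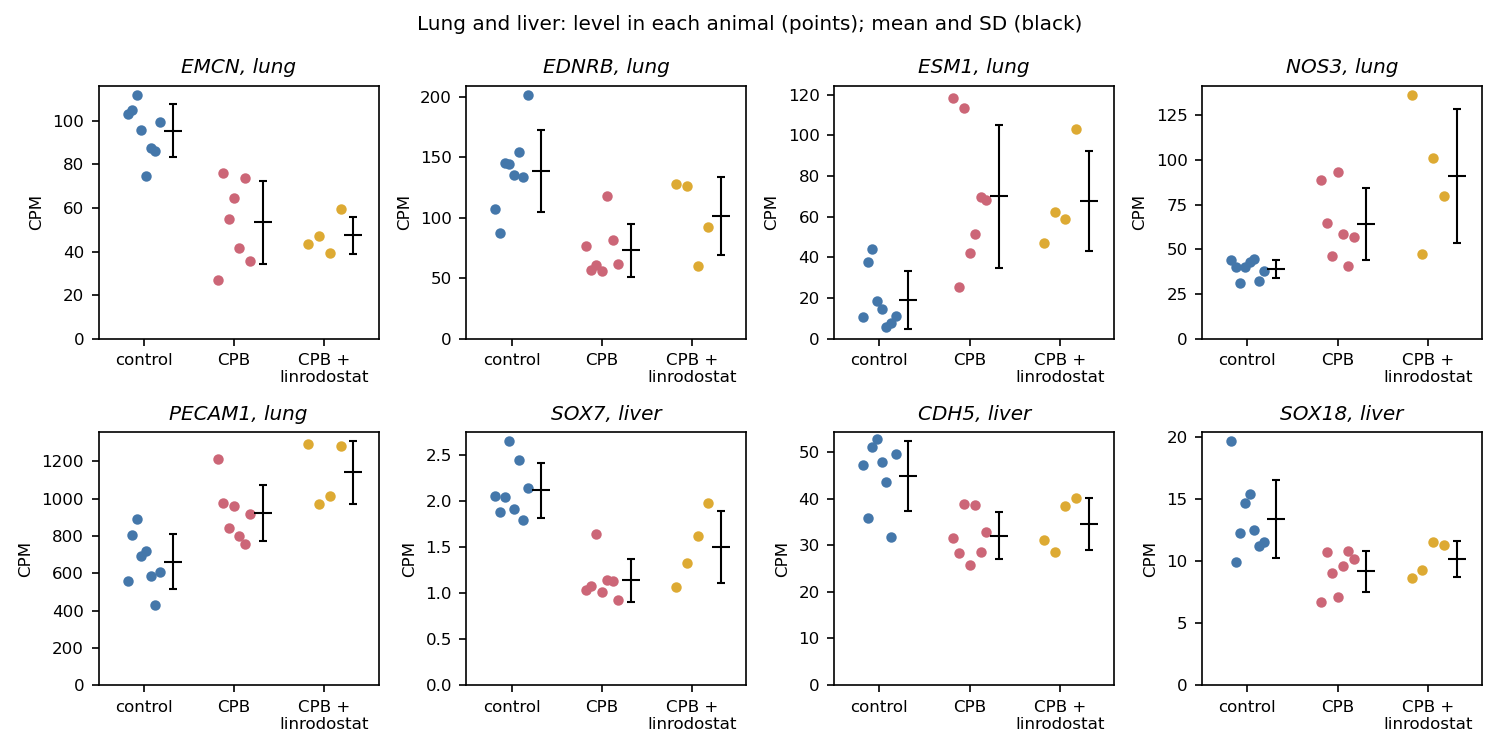
CPM of 5 genes in each lung and of 3 genes in each liver (points) of the 8 control, 7 CPB and 4 CPB with linrodostat animals, with mean and SD in black. In lung EMCN and EDNRB are lower and ESM1, NOS3 and PECAM1 higher in CPB, and in liver SOX7 shows no overlap between control and CPB.

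In the same lungs 7 of 11 macrophage markers fell (summed level 7945 to 13891 CPM in controls and 4008 to 8359 in CPB), 3 of 6 neutrophil markers rose (122 to 259 against 190 to 401 CPM) and 1 of 8 T and B cell markers fell, with none at 0, where 2.62% of all genes fell and 2.08% rose. Their part in the result was not tested. Without CPB lungs 19 and 25, 2 macrophage markers fell and 0 neutrophil and 0 T and B cell markers passed. In that fit EDNRB alone passed among the 33 (162 genes passed in all), with ESM1 at an adjusted p of 0.0556 and EMCN at 0.0827, and the number that passed was 3 without any 1 of controls 1, 10, 15 and 26 or of CPB lungs 2, 11, 19 and 25. PECAM1 lost its call without any 1 of 15 of the 19 lungs, and NOS3 without any 1 of 10.

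In liver the 5 genes that passed all fell, and 3 of them are core identity genes. Other genes of the same roles did not pass. Of 5 transcription factors 2 fell and 3 did not pass, with log2FC from −0.89 to 0.42. Of 3 junction genes 1 fell and 2 did not pass (−0.49 to 0.03). The 2 lymphatic genes, PROX1 and LYVE1, were above 0 (0.23 to 0.49) and did not pass. SOX7 (chromosome 14, 13938381 to 13945324), a SOXF transcription factor, was low in liver and at 1.79 to 2.66 CPM in controls (median 2.05), 0.924 to 1.64 in CPB (median 1.08) and 1.07, 1.32, 1.61 and 1.98 in linrodostat livers. The control and CPB groups did not overlap, and the log2FC was −0.89 ± 0.18 (adjusted p = 0.00172). The related SOX18 was at 9.93 to 19.7 CPM in controls (median 12.4) and 6.72 to 10.8 in CPB (median 9.59), with 4 of 7 CPB livers below every control (log2FC −0.55 ± 0.15, adjusted p = 0.0116).

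CDH5 (VE-cadherin, chromosome 6, 27108560 to 27142145), the adhesion protein of endothelial junctions, was at 31.7 to 52.9 CPM in control livers (median 47.6), 25.7 to 38.9 in CPB (median 31.6) and 28.6, 31.2, 38.5 and 40.2 in linrodostat livers (log2FC −0.49 ± 0.13, adjusted p = 0.00998). Among the CPB livers 4 of 7 lay below every control. EGFL7, a secreted endothelial factor, had a median of 29.3 CPM in controls and 20.5 in CPB (log2FC −0.43 ± 0.15, adjusted p = 0.0435). APLNR went from a median of 7.10 to 2.46 CPM (log2FC −1.06 ± 0.38, adjusted p = 0.0449). The scavenger receptor STAB1 (log2FC −0.61 ± 0.22, adjusted p = 0.0432) and OIT3 (−0.59 ± 0.21, adjusted p = 0.0419), both of sinusoidal endothelium, fell too, as 2 of the 4 further sinusoidal genes tested, where 11.3% of all genes fell.

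Beside this, 6 of 8 T and B cell markers fell in liver (summed level 30.3 to 100.2 CPM in controls and 10.6 to 44.2 in CPB), 6 of 11 macrophage markers fell (1447 to 2922 against 1435 to 1869 CPM), and 3 of 6 neutrophil markers rose (4.25 to 11.9 against 5.61 to 20.8 CPM), with none at 0, where 11.3% of all genes fell and 15.6% rose. Their part in the result was not tested. SOX7, CDH5 and SOX18 passed under every alternative, but EGFL7 and APLNR each lost their call without any 1 of 11 of the 19 livers, and only 3 genes passed without control liver 13, CPB liver 2, 11 or 25, or linrodostat liver 24.

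In heart a single gene passed. GJA5 (chromosome 4, 99854129 to 99871288), which encodes connexin 40, a gap junction protein of arterial endothelium and of atrial and conducting muscle, was at 7.49 to 13.7 CPM in controls (median 10.5), 11.4 to 20.5 in CPB (median 15.0) and 13.3, 17.3, 19.3 and 22.8 in linrodostat hearts. Of the CPB hearts 6 of 7 lay above every control (log2FC 0.54 ± 0.15, adjusted p = 0.0233), and the call ended without CPB heart 11 (adjusted p = 0.0593). Smooth muscle and pericyte markers moved in both directions in heart, 3 of 10 up and 1 down (4135 to 6057 against 4468 to 9198 CPM), where 6.39% of all genes rose and 5.53% fell. The part of these markers was not tested. Ileum had no call: edgeR, DESeq2 and limma-voom each gave 0 of 33, an unadjusted p under 0.05 was found for 0, and log2FC ran from −0.44 (ESM1) to 0.46 (EDNRB).

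Leukocyte adhesion molecules did not pass in any organ. Of the 20 values for ICAM1, ICAM2, VCAM1 and SELP in 5 organs, 0 passed. Of all genes 0% passed in ileum, 4.71% in lung, 11.9% in heart, 21.1% in kidney and 26.9% in liver. ICAM1 was at 176 to 354 CPM in control lungs (median 261) and 246 to 344 in CPB (median 281), a log2FC of 0.16 with a 95% interval from −0.07 to 0.40. In kidney VCAM1 was at 27.7 to 174.7 CPM in controls (median 44.7, highest in control 15) and 17.1 to 91.5 in CPB (median 39.2), a log2FC of −0.58 with an interval from −1.41 to 0.26. SELP, stored in endothelial granules and platelets, was low in kidney (median 0.897 and 0.549 CPM) and its log2FC of −0.79 had an interval from −1.60 to 0.02.

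Some of the integrins and selectin ligands that bind these molecules on leukocytes passed. In lung 5 of 8 fell and 0 rose, against 2.62 and 2.08% of all genes, led by ITGAL (log2FC −1.11 ± 0.17, adjusted p = 0.00162) and ITGA4 (−0.84 ± 0.16, adjusted p = 0.00762), partners of ICAM1 and VCAM1. Without CPB lungs 19 and 25 these 2 were the ones that fell (adjusted p = 0.0111 and 0.0460). In liver 5 fell and 2 rose of 8, against 11.3 and 15.6% of all genes, led by ITGB7 (−1.22 ± 0.29, adjusted p = 0.00544) and ITGAM (−1.18 ± 0.25, adjusted p = 0.00261). CD44, a ligand of selectins, rose in kidney (1.33 ± 0.21, adjusted p = 0.000249) and in heart (1.58 ± 0.35, adjusted p = 0.00621), and ITGAM fell in kidney (−1.01 ± 0.26, adjusted p = 0.0116).

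The ratio of 2 genes within a library does not depend on library scaling, and EMCN and PECAM1 are both genes of endothelial cells. This pair was chosen after the values were seen, and the ratio is given as a description. Whether it followed the mix of cells was not tested. In kidney log2 of EMCN over PECAM1 counts was −1.77 ± 0.34 in controls (SD, n = 8), −3.39 ± 0.44 in CPB (n = 7) and −3.48 ± 0.40 with linrodostat (n = 4). The lowest control, −2.34, lay above the highest CPB kidney, −2.94. In lung the ratio was −2.77 ± 0.31, −4.19 ± 0.71 and −4.59 ± 0.24, and again the lowest control (−3.27) lay above the highest CPB lung (−3.37). Heart controls (−2.68 ± 0.51) overlapped CPB hearts (−3.51 ± 0.59), and so did the groups in ileum (−3.94 ± 0.36 and −4.37 ± 0.31) and liver (−3.79 ± 0.33 and −3.88 ± 0.22).

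**Figure D5:**
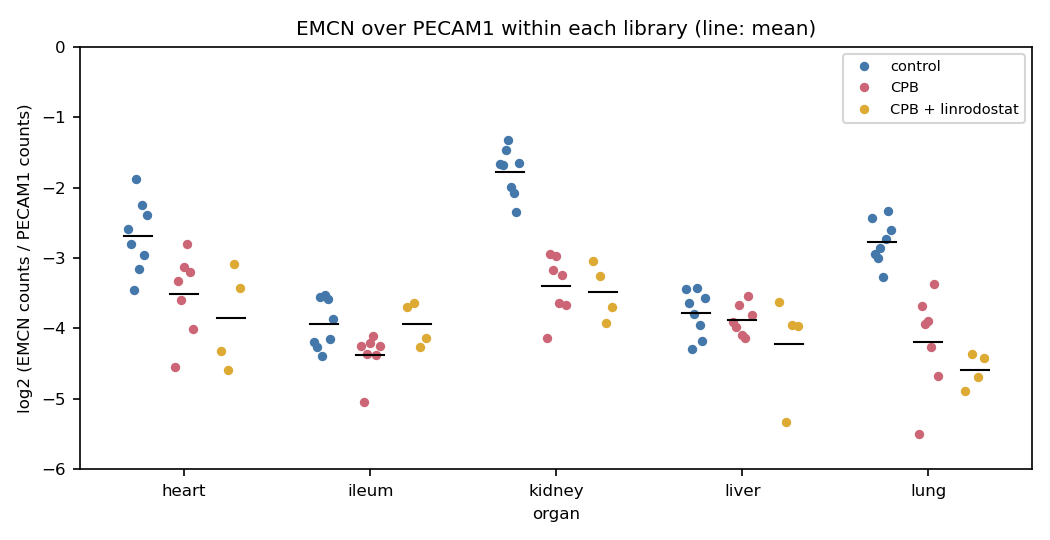
Log2 ratio of EMCN to PECAM1 counts in each library (points) by organ and arm; the black line is the mean of the group. The control and CPB points are apart in kidney (means −1.77 and −3.39) and lung (−2.77 and −4.19) and overlap in the other 3 organs.

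Whether the effect of CPB differed between organs was tested across all 95 libraries. Of the 33 genes 7 passed, against 12.9% of all genes: APLNR (adjusted p = 0.00285), ESM1 (0.00762), PROX1 (0.0161), LYVE1 (0.0299), CD34 (0.0308), EDNRB (0.0485) and CALCRL (0.0498). APLNR had a log2FC of −2.36 in kidney and 0.07 in lung, ESM1 of 1.90 in lung and −0.23 in heart, and EDNRB of −0.92 in lung and 0.53 in heart. LYVE1, the hyaluronan receptor of lymphatic and sinusoidal endothelium, passed in no single organ but had opposite signs in kidney (−0.91 ± 0.34, adjusted p = 0.0626) and lung (0.80 ± 0.25, adjusted p = 0.0702). Lung LYVE1 was at 58.7 to 172 CPM in controls (median 90.2) and 130 to 338 in CPB (median 149.9), and kidney LYVE1 at 1.18 to 5.45 (median 2.64) and 0.725 to 2.44 (median 1.81).

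That test shares 1 estimate of spread over organs and, on simulated data, made more false calls than its threshold allows, which the next one did not. In a heterogeneity test with each organ's own spread 6 genes passed, APLNR (adjusted p = 0.00346), EDNRB (0.00414), ROBO4 (0.00725), ESM1 (0.0156), LYVE1 (0.0222) and PROX1 (0.0426), and not CALCRL (0.0542) or CD34 (0.208). Without control kidneys 14 and 15, 4 passed in the shared test (2355 of 20269 genes in all), ESM1 (0.00647), APLNR (0.00720), LYVE1 (0.0145) and EDNRB (0.0256). Without CPB lungs 19 and 25 the call of CALCRL ended (0.0550) and 6 passed (2582 of 20268 genes in all). With the animal as a block, which pairs organs of the same pig, ACVRL1 passed and CALCRL did not (0.105), where 3167 of 20321 genes passed in all. Without heart, 6 passed (2015 of 20099 genes in all), with ROBO4 (0.0473) among them and EDNRB (0.102) and CALCRL (0.0567) not. With no low-count filter EDNRB (0.0700) and CALCRL (0.0902) did not pass either.

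The second comparison asks what linrodostat changed on top of CPB. With edgeR 0 of 33 genes passed in any organ, where 0% of all genes passed in heart, ileum, kidney and lung and 0.772% in liver. At an unadjusted p under 0.05 there were 8 genes in heart, 6 in lung, 6 in ileum, 3 in kidney and 2 in liver, or 24.2, 18.2, 18.2, 9.1 and 6.1% of the 33, where 6.05, 2.59, 9.18, 4.66 and 8.42% of all genes did so. limma-voom also called 0 in each organ, and DESeq2 called 1, PLVAP in ileum.

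PLVAP (chromosome 2, 60324565 to 60344450), the protein of the diaphragms in fenestrated capillaries, was at 141 to 272 CPM in control ileum (median 242), 199 to 431 in CPB (median 251) and 115, 127, 134 and 189 with linrodostat. All 4 linrodostat values lay below the lowest CPB value. The log2FC was −0.89 ± 0.23 with an unadjusted p of 0.00106 and an adjusted p of 0.423 in edgeR, and the adjusted p in DESeq2 was 0.0395. The highest CPB value, 431 in animal 19, stood apart from the other CPB ilea, and without it the log2FC was −0.72 in edgeR (adjusted p = 0.459) and the DESeq2 call ended (adjusted p = 0.0515). In ileum 28 of the 33 genes were below 0 in this comparison (median log2FC −0.41), and in heart 31 of 33 were above 0 (median 0.28), with medians over all genes of 0.06 and −0.01. Fibroblast markers in ileum were below 0 for 8 of 8 (median −0.41), with 0 passing. In heart 7 of 8 fibroblast markers (median 0.43) and 7 of 10 smooth muscle and pericyte markers (median 0.36) were above 0, with 0 passing, and the part of these cells was not tested. In lung GJA4, the arterial connexin 37, had the smallest unadjusted p (0.00159, log2FC 0.61 ± 0.17, adjusted p = 1.00).

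None of the genes that passed with CPB passed between linrodostat and CPB. For EMCN in kidney the difference of linrodostat from CPB was −0.17 with a 95% interval from −0.45 to 0.12, so a return of the log2FC of −1.04 to control level lies outside it. For APLNR in the same kidneys it was 0.19 with an interval from −0.61 to 0.98.

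Linrodostat animals were also set against controls. These comparisons share the 8 controls with those above, so the values stand side by side and are not a second test. Of the 33 genes 5 passed in kidney (20% of all genes), 5 in lung (2.35%), 3 in liver (21.8%), 2 in heart (2.04%) and 0 in ileum (0.213%). In kidney EMCN had a log2FC of −1.21 against −1.04 for CPB, APLNR −2.17 against −2.36, CD34 −1.39 against −1.58, PROX1 −1.18 against −1.07 and ROBO4 0.73 against 0.84. Leaving out 1 library at a time ended the call of CD34 for 7 of the 19 kidneys, of PROX1 for 5 and of ROBO4 for 2. Without control kidneys 14 and 15, CD34 (−0.79, adjusted p = 0.135) and PROX1 (−0.76, adjusted p = 0.104) did not pass between linrodostat and control. In that fit 5 of the 33 rose and 2 fell (3508 genes passed in all), where 1 rose and 4 fell with those kidneys included. In lung NOS3 had 1.22 against 0.72, PECAM1 0.79 against 0.48, ESM1 1.85 against 1.90, EMCN −1.01 against −0.84 and ROBO4 0.96 against 0.48. The ESM1 call ended without any 1 of 12 of the 19 lungs and without CPB lungs 19 and 25 (adjusted p = 0.0536). The call of ROBO4 ended without any 1 of 4 lungs and with limma-voom. Those of PECAM1 and EMCN ended without any 1 of 2 lungs each, and NOS3 passed under every alternative. In heart PECAM1 had 0.92 against 0.39 and GJA5 0.79 against 0.54. The PECAM1 call ended without linrodostat heart 12 or 18 and with limma-voom. The GJA5 call ended without linrodostat heart 12, 18 or 24. In liver ESM1 had 1.64 against 1.10, from control levels of 0.0793 to 0.391 CPM, PROX1 0.78 against 0.49 and EDNRB 0.66 against 0.16. Each of these liver calls ended without 1 linrodostat liver, 20 for ESM1, 24 for PROX1 and 12 for EDNRB.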

How the data were processed

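The authors deposited 1 table of expected counts, estimated read counts per Ensembl gene, not scaled for library size or length; whole numbers made up 92.7 to 96.6% of a library's values, and all were rounded. The submitters' processing notes name STAR, Salmon, Trim Galore, cutadapt, bcl2fastq, MultiQC and the assembly Sscrofa11.1; which program made the counts, its strand setting and the annotation release are not given in the sources used here. Positions are RefSeq's for Sscrofa11.1; EGFL7 and APLNR have no assigned chromosome there.

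Groups and animal numbers follow the labels. Per organ, all 19 libraries were fitted with edgeR 4.0.16 under R 4.3.3 (TMM, filterByExpr by arm, robust glmQLFit); tests are 2-sided. Log2 CPM used a prior count of 2, and 95% intervals are normal ones from the SE. Alternatives were RLE scaling, no filter, sex, only the 2 arms compared, DESeq2 1.42.0, limma-voom (limma 3.58.1), leaving out each library, and, chosen after seeing the data, sets of libraries and an own-spread test. Same-numbered libraries come from 1 animal (median r of deviations 0.0887 to 0.196 over 10 organ pairs and 20321 genes). No library was a copy. The fits were tested on simulated data. The genes and lists were chosen with earlier results of these data known. Genes described in full passed CPB against control in at least 1 organ (at most the 5 smallest p per organ); of other lists at most 2 passing genes per organ with the largest change are named. The values of 1 gene of the adhesion ligand list are not reported here.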

Additional observations from a re-analysis of the deposited data

Results flagged for a closer look

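In 28 of 495 groups of 1 gene, organ and arm (5.66%), the highest or lowest library lay apart from the rest; chance flags about 1 in 20. Levels below are CPM. In heart, control 4 stood apart in CALCRL (36.8), CDH5 (187), GJA4 (16.7) and MMRN2 (64.6), linrodostat animal 12 in ESAM (77.8) and CPB animal 19 in SOX18 (9.5). In ileum, CPB animal 19 stood apart in EDNRB (57.7) and PLVAP (431), CPB animal 25 in PROX1 (6.45) and linrodostat animal 18 in RAMP2 (23.8). In kidney these were control 15 in VCAM1 (174.7), CPB animal 25 in MMRN2 (23.8) and linrodostat animal 12 in KLF2 (57.7). In liver they were control 4 in CD93 (37.8) and CLEC14A (23.8), CPB animal 11 in MMRN2 (1.96) and 9 in SOX7 (1.64), and linrodostat animals 18 in EMCN (1.29), 20 in RAMP2 (27.2) and 12 in ROBO4 (4.75). In lung they were control 15 in APLNR (21.5), CD93 (159.8) and ICAM2 (311), control 13 in RAMP2 (519), CPB animal 6 in APLNR (131.8) and 21 in ROBO4 (77.4), and linrodostat animal 12 in CD34 (104) and GJA5 (95.6). MMRN2 in kidney and SOX7 in liver passed for CPB against control, and both libraries lie on the control side of their group. For PLVAP in ileum, whose difference between linrodostat and CPB passed in DESeq2 alone, that call ended without CPB animal 19 (adjusted p = 0.0515).

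The effect of CPB differed between organs by the test across 95 libraries for APLNR (adjusted p = 0.00285), ESM1 (0.00762), PROX1 (0.0161), LYVE1 (0.0299), CD34 (0.0308), EDNRB (0.0485) and CALCRL (0.0498), in edgeR. This test shares 1 spread over organs and made more false calls on simulated data than its threshold allows, and with each organ's own spread CD34 (adjusted p = 0.208) and CALCRL (0.0542) did not pass. In the shared test without heart, EDNRB (adjusted p = 0.102) and CALCRL (0.0567) did not pass.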

How the results depend on the processing

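No called value changed sign under any alternative. Of the 21 gene and organ calls for CPB against control, 8 passed under every alternative: EMCN, APLNR, CD34 and ROBO4 in kidney, SOX7, CDH5 and SOX18 in liver and EDNRB in lung. The number of genes that passed CPB against control moved by over 1.5 times in heart to 2 with only the 2 arms, in liver to 3 with no filter and 3 with limma-voom, and in lung to 3 with no filter and 1 without CPB lungs 19 and 25. For linrodostat against control it moved in heart to 1 (limma-voom), in kidney to 3 (no filter) and 3 (only the 2 arms), in liver to 5 (DESeq2) and in lung to 9 (DESeq2), and for linrodostat against CPB in ileum to 1 (DESeq2). Leaving out 1 library at a time gave, for CPB against control, 6 to 14 genes in kidney, 3 to 5 in lung, 3 to 6 in liver and 0 to 1 in heart, and for linrodostat against control 2 to 5 in kidney, 2 to 6 in lung, 2 to 4 in liver and 0 to 3 in heart. The cause was not tested. For the difference between organs, the animal as a replicate block left the number at 7, relative log expression gave 8, no filter 5, without heart 6, an own spread per organ 6, and the test without control kidneys 14 and 15 gave 4 and that without CPB lungs 19 and 25 gave 6. Over all genes, 2628 of 20321 passed in the main test, 2760 of 20321 with relative log expression and 2119 of 32415 with no filter. With an own spread per organ 2257 of 13637 did. Within an organ no paired analysis was possible because each animal belongs to 1 arm. Depth ran from 19956858 to 27219448 counts in heart and up to 53627711 in lung; no detection limit was computed, and low genes such as SELP in kidney rest on few reads.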
